A study of Mus musculus with 6 samples.

Results

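The cyclins that drive the mitotic and meiotic cell cycles were followed in mouse gonads: Ccna1, Ccna2, Ccnb1, Ccnb2, Ccnd1, Ccnd2, Ccnd3, Ccne1 and Ccne2. The members were all probe sets whose only gene symbol in the platform annotation is one of these 9 names, which gave 20 of 45101 probe sets and 8 of 18193 genes. Ccnb1 matched no such probe set and is not analysed here. Whole gonads of C57BL/6 mice were measured on 6 Affymetrix arrays: fetal ovary and fetal testis at 15.5 days postcoitum, neonatal ovary and neonatal testis on postnatal day 1, and adult ovary and adult testis at 10 weeks. No treatment or mutation is given for any of them. The study was set up to look for genes that act when chromosomes are parted at the first meiotic division. With 1 array per group nothing was replicated, and neither p-values nor standard errors can be given.

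Cyclins are the regulatory subunits of cyclin-dependent kinases, and each type peaks at its own stage of the cell cycle before it is degraded. The D-type cyclins activate Cdk4 and Cdk6 in response to growth signals, the E-type cyclins activate Cdk2 at the start of DNA synthesis, the A-type cyclins act with Cdk2 and Cdk1 through DNA synthesis and entry into division, and the B-type cyclins activate Cdk1 at division. Most of them serve dividing cells of all kinds, whereas Ccna1 is known in mouse as a cyclin of male germ cells, whose loss stops spermatocytes before the first meiotic division. At the fetal age sampled, female germ cells pass through meiotic prophase, male germ cells wait until after birth, and spermatocytes and spermatids populate the adult testis.

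Signals below are linear intensities after each array was multiplied by 1 factor (0.913 to 1.26) to a common trimmed mean. The median over all arrays, 75.3, served as a floor, and a ratio against a gene at the floor is a lower bound. Calls were made where a ratio reached 4, and each array had between 11906 and 12661 of 18193 genes above the floor. The spread of 1 log2 ratio, taken from pairs of probe sets of the same gene, had a robust SD between 0.16 (fetal ovary against fetal testis) and 0.64 (adult ovary against adult testis). This SD covers differences between probe sets and no variation between animals or arrays. The adult testis and neonatal ovary arrays stood apart. Their hybridization controls, spiked RNAs of known amount, averaged 745 and 1031, against 1462 to 1675 on the other 4 arrays, and their ratios of 3' to 5' signal for Gapdh, a measure of RNA integrity, were 2.36 and 3.12, against 1.32 to 1.45. For Actb, the second control gene, the same ratio was 1.81 and 3.28, against 2.91 to 3.78, with fetal ovary the highest, so by Actb neither of the 2 arrays had the highest ratio. Each group has 1 array, so no result that rests on these 2 arrays can be given without them.

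Ccna1 was above the floor on a single array, that of adult testis. Its 1 probe set measured 18.6 in fetal, 28.3 in neonatal and 8.12 in adult ovary, and 30.0 in fetal, 21.4 in neonatal and 2058 in adult testis. The 5 arrays under the floor have no order among themselves. Adult testis therefore exceeded neonatal testis at least 27.3-fold (log2 4.77), and adult ovary was at least 27.3-fold lower than adult testis (log2 -4.77). The bound was between 4.65 and 5.67 (log2) in adult testis against neonatal testis under 5 ways of scaling the arrays. Fetal ovary gave no Ccna1 signal above the floor although its synaptonemal complex genes, which pair chromosomes in meiotic prophase, were present. The 5 of those genes that were measured summed to 7401 in fetal ovary and 1272 in fetal testis, and 4 of them (Sycp1, Sycp3, Syce1 and Syce3) were called higher in fetal ovary, where 0.192% of all genes were.

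The pattern of Ccna1 was shared by many genes. In all, 893 of 18193 genes (4.91%) reached 4 times the floor in adult testis and stayed at the floor on the other 5 arrays. Markers of late male germ cells moved with Ccna1: 7 of 7 late spermatocyte markers summed to 41604 in adult testis, against 661 in neonatal testis with 3 of 7 above the floor. The 7 spermatid markers summed to 60005 in adult testis, against 282 in neonatal testis with 1 of 7 above the floor. Markers of germ cells of both sexes differed less. These 4 summed to 13066 in adult testis and 4298 in neonatal testis, with 3 above the floor on each array. Of them 1 (Mael) was called higher in adult testis, where 10.7% of all genes were. In whole gonads, fewer cells of a type and less RNA per cell cannot be told apart, and the part of germ cell number in the Ccna1 result was not tested.

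Ccna2, the A-type cyclin of dividing somatic and germ cells, ran opposite to Ccna1. It measured 1386 in fetal, 1750.1 in neonatal and 936 in adult ovary, and 1726 in fetal, 1895 in neonatal and 181 in adult testis. Adult testis was the lowest of the 6 arrays. Ccna2 was 10.4-fold lower in adult testis than in neonatal testis (log2 -3.38) and adult ovary exceeded adult testis 5.16-fold (log2 2.37). A further probe set of Ccna2 measured 1174 in fetal, 1039 in neonatal and 683 in adult ovary, and 1445 in fetal, 1354 in neonatal and 264 in adult testis, so adult testis was again lowest. It gave smaller differences, log2 -2.36 in adult testis against neonatal testis and log2 1.37 in adult ovary against adult testis, so the call in adult ovary against adult testis was made by 1 of 2 probe sets. With the arrays scaled to the hybridization controls, the probe set used gave log2 -2.01 in adult testis against neonatal testis, still a call, and log2 1.34 in adult ovary against adult testis, under the limit. In fetal and neonatal gonads the sexes differed by log2 -0.32 and -0.12 (ovary over testis), and the neonatal value turned to 0.32 when the arrays were scaled to the hybridization controls.

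Ccnb2, a B-type cyclin of cell division, was above the floor everywhere and highest in adult testis. Its 1 probe set measured 1661 in fetal, 1976 in neonatal and 1210.1 in adult ovary, and 1963 in fetal, 2222 in neonatal and 3713 in adult testis. Adult testis exceeded neonatal testis by 1.67-fold (log2 0.74), against a robust SD of 0.59 for that comparison, and it was not called. The adult ovary signal of Ccnb2 was 3.07-fold lower than in adult testis (log2 -1.62), which was not called either. With the arrays scaled to the hybridization controls both passed the limit, at log2 2.11 in adult testis against neonatal testis and log2 -2.64 in adult ovary against adult testis. Under the scaling used, Ccna1 and Ccnb2 were the 2 members whose highest array was adult testis. One stayed at the floor elsewhere and the other was present on all 6 arrays.

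The promoters of these 2 members are shown because their signals differ in this way, one seen in adult testis alone and one on every array. The windows run from 250 bases before to 20 bases after the transcript start, as RefSeq gives them for GRCm38.p6, and capitals mark the letters CCAAT or their reverse complement ATTGG (the CCAAT box) and TTTGAA (the core of the cell cycle genes homology region). The Ccna1 window is chr3:55055036-55055305 on the minus strand, and its transcript start at 55055055 lies inside the annotated gene, which spans 55045469 to 55057634. The Ccnb2 window is chr9:70421535-70421804 on the minus strand.
Ccna1: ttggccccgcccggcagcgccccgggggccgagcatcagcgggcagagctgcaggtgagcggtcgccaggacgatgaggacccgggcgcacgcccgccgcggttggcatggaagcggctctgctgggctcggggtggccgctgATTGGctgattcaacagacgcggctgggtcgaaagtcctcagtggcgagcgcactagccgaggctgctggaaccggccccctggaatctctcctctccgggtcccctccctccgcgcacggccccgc
Ccnb2: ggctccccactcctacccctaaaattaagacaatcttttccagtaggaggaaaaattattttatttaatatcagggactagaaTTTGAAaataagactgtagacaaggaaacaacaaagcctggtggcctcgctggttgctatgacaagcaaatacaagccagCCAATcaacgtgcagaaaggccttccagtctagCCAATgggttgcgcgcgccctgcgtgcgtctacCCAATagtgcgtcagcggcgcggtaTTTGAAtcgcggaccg
The Ccna1 window held 1 CCAAT box, in reverse at 107 bases upstream, and no TTTGAA on either strand. It was 72.6% G and C with 30 CpG, against a median of 52.6% over 32851 promoters of the same length. The Ccnb2 window held 3 CCAAT boxes, at 87, 54 and 21 bases upstream, and 2 TTTGAA, at 167 bases upstream and at base 5 after the start, and it was 48.1% G and C with 14 CpG. Of all promoters 35.4% held CCAAT on either strand and 3.05% held it 3 or more times, while 16.8% held TTTGAA and 2.03% held it 2 or more times. The letters TTTNNCGC, an E2F site, were found in 4.65% of promoters and in neither window. The GC box GGGCGG was found in 34.1% of promoters and once in reverse in the Ccna1 window. None of the matches overlapped another. They are matches of letters, and binding was not measured. Promoter windows of Ccnd3 and Ccne1, whose signals were also above the floor on all 6 arrays, were matched too. Those of the other members were not used here. The Ccne1 window held no CCAAT box and no TTTGAA, and was 75.9% G and C with 37 CpG, nearer to Ccna1 than to Ccnb2. The 2 Ccnd3 windows held no TTTGAA, 1 of them held 1 CCAAT box, and they were 59.3% and 65.9% G and C. The relation of these letters to the signals was not tested.

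**Figure D1:**
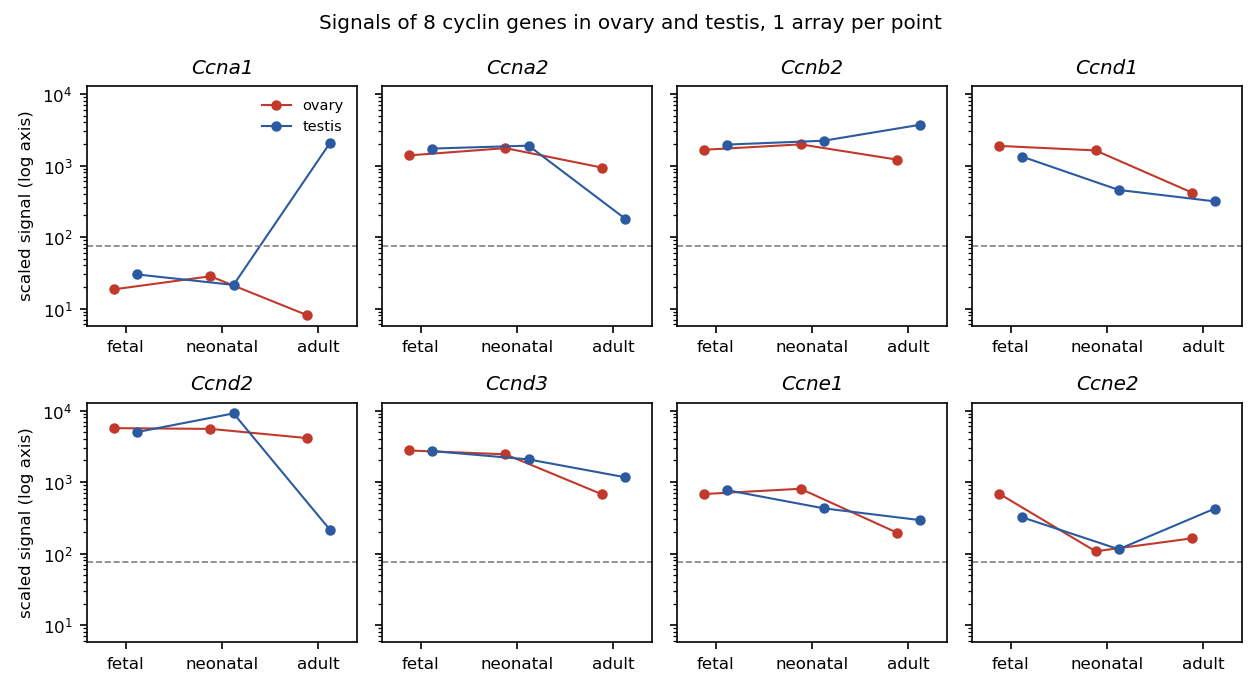
Scaled signal of 8 cyclin genes (log axis) by age, with ovary in red and testis in blue, 1 array per point and a dashed line at the floor of 75.3. Ccna1 lies under the floor except in adult testis at 2058, while Ccna2 and Ccnd2 have their lowest points there at 181 and 216.

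Among the D-type cyclins, Ccnd2 had the largest difference of all members measured on both arrays. In mouse it is needed for the growth of granulosa cells and for testes of normal size. It measured 5664 in fetal, 5533 in neonatal and 4118 in adult ovary, and 4996 in fetal, 9109 in neonatal and 216 in adult testis. Neonatal testis was the highest array and adult testis the lowest. Ccnd2 was 42.2-fold lower in adult testis than in neonatal testis (log2 -5.40) and adult ovary exceeded adult testis 19.1-fold (log2 4.26). Of its 7 probe sets, 4 lay above the floor on both arrays of each of these comparisons. They gave log2 -5.97 to -5.33 in adult testis against neonatal testis and 4.26 to 4.69 in adult ovary against adult testis. Of the other 3, 2 were at the floor in adult testis and above it in neonatal testis and adult ovary, and 1 was at the floor on all 6 arrays. In neonatal ovary against neonatal testis the value was negative, log2 -0.72 for the probe set used and -0.28 for it with the hybridization controls. The 5 probe sets measured on both of those arrays spanned log2 -1.94 to -0.48, so the size depends on the probe set.

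Ccnd1 differed between the neonatal gonads, with the higher signal in ovary. It measured 1880.2 in fetal, 1625 in neonatal and 418 in adult ovary, and 1328 in fetal, 455 in neonatal and 315 in adult testis. The testis signal was low by birth, and the ovary signal was clearly low only in the adult. Neonatal ovary exceeded neonatal testis by 3.57-fold (log2 1.84, robust SD 0.28), just under the limit, and reached log2 2.27 with the hybridization controls. Its 3 probe sets spanned log2 0.08 to 1.84 in that comparison, and the lowest came from a probe set with signals of 86.4 in neonatal ovary and 82.0 in neonatal testis, close to the floor. Neonatal testis against fetal testis gave log2 -1.54, and adult ovary against neonatal ovary gave log2 -1.96. The step before, neonatal ovary against fetal ovary, was log2 -0.21 for the probe set used (0.02 with the hybridization controls) and as far as -1.04 for another.

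Ccnd3 measured 2760 in fetal, 2441 in neonatal and 675 in adult ovary, and 2709 in fetal, 2071 in neonatal and 1168 in adult testis. The 2 adult arrays were the lowest under the scaling used, and adult ovary was the lower of them. The difference was log2 -1.85 in adult ovary against neonatal ovary and log2 -0.83 in adult testis against neonatal testis, and the testis value turned to 0.55 with the hybridization controls. The other 2 probe sets of Ccnd3 were dim, with highest signals of 212 and 181. In adult ovary against neonatal ovary, the 2 probe sets above the floor on both arrays disagreed in size, at log2 -1.85 and -0.22.

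The E-type cyclins differed from each other in when they were low. Ccne1 measured 679.5 in fetal, 805 in neonatal and 196 in adult ovary, and 768 in fetal, 429 in neonatal and 293 in adult testis, so both adult arrays were its lowest, though adult testis exceeded neonatal testis with the hybridization controls (log2 0.82). It was 4.11-fold lower in adult ovary than in neonatal ovary (log2 -2.04), which passed the limit by a small margin. Its probe set is of a kind that can cross-hybridize, and its other probe set gave log2 -1.91 in that comparison, under the limit. That other probe set also gave the opposite sign in fetal ovary against fetal testis, log2 0.27 against -0.18.

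Ccne2, whose loss lowers male fertility in mouse, was lowest at birth in both sexes. Its 1 probe set measured 685 in fetal, 107 in neonatal and 163 in adult ovary, and 321 in fetal, 115 in neonatal and 426 in adult testis. It was 6.38-fold lower in neonatal ovary than in fetal ovary (log2 -2.67) and lower in neonatal testis than in fetal testis by log2 -1.48. The neonatal ovary array had a Gapdh 3' to 5' ratio of 3.12, the highest, and an Actb ratio of 3.28, while the fetal ovary array, higher in Ccne2, had the highest Actb ratio (3.78). The part of RNA integrity in the Ccne2 values was not tested. Ovary exceeded testis in the fetus by 2.14-fold (log2 1.10, robust SD 0.16), while in the adult the ovary was lower by log2 -1.39 (robust SD 0.64). Adult testis was 3.71-fold higher than neonatal testis (log2 1.89), under the limit with the scaling used and past it under 3 of 5 scalings, at log2 2.02 with quantile normalization, 2.13 as deposited and 3.26 with the hybridization controls. In adult ovary against adult testis the hybridization controls gave log2 -2.41, also past it.

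**Figure D2:**
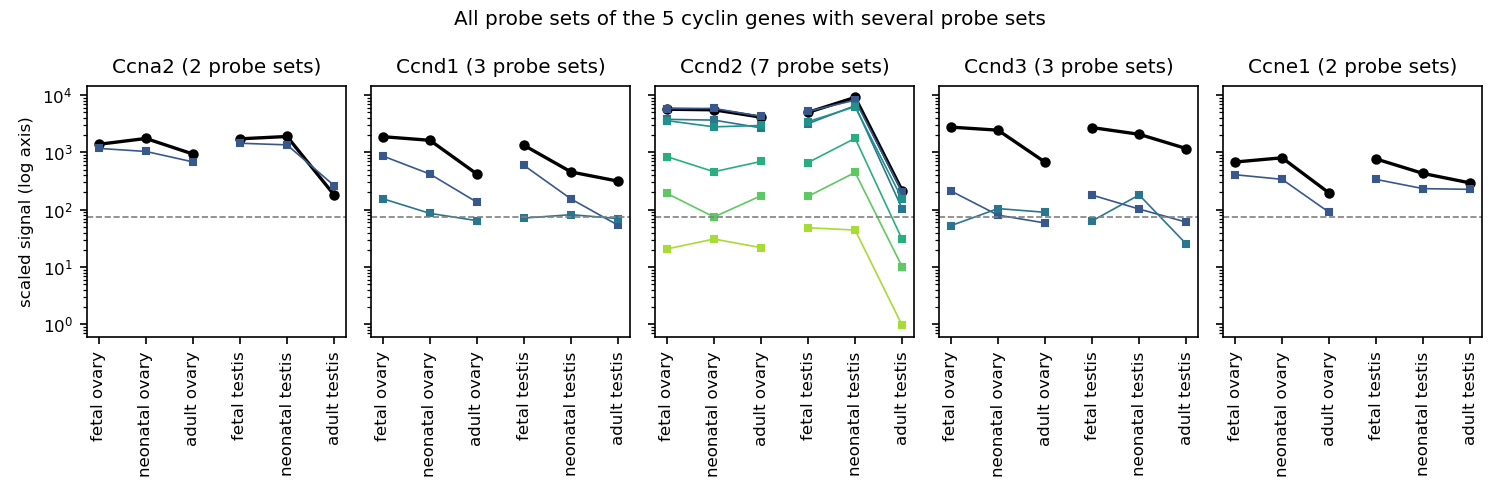
Scaled signals (log axis) of every probe set of the 5 cyclin genes with several probe sets on the 6 arrays, with the probe set used for the gene in black and the floor of 75.3 as a dashed line. All 6 Ccnd2 probe sets that exceed the floor anywhere are lowest in adult testis, while the dim probe sets of Ccnd1 and Ccnd3 lie near the floor.

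The calls of members were read against the shares of all genes called. In adult testis against neonatal testis, 1 of 8 measured members was called higher (Ccna1) and 2 were called lower (Ccna2 and Ccnd2), where 10.7% of all genes were called higher and 10.3% lower. The median log2 ratio of the 8 members was -0.54, against -0.30 over the 14198 genes above the floor on either array. Ccna1 lay 5.32 (log2) above the median of the other 7 members. The comparison of adult ovary with adult testis uses the same adult testis array, and there 2 members were called higher (Ccna2 and Ccnd2) and 1 lower (Ccna1), where 11.9% of all genes were called higher and 10.9% lower. The median of the members was -0.69, against 0.35 over all genes, and Ccna1 lay at -4.19 relative to the median of the other 7. Against that background, counts of 1 and 2 among 8 members are no result about the family, and what the data give is which members differed and by how much.

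At the younger ages calls were rare over the whole array as well. In fetal ovary against fetal testis no member was called, where 0.192% of all genes were called higher and 0.44% lower, and the median of the 7 members above the floor was 0.03, against 0.02 over all genes. In neonatal ovary against neonatal testis no member was called, where 1.4% of all genes were called higher and 0.962% lower, and the median of the members was -0.10, against 0.07. In neonatal testis against fetal testis no member was called, where 0.357% were called higher and 0.44% lower. The median of the members was -0.39, against -0.06 over all genes. Ccnd2 was the member with the largest positive value there, log2 0.87.

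In the ovary each step of age had 1 call under the scaling and floor used, and both depend on a setting. Ccne2 was called lower in neonatal ovary against fetal ovary, where 0.759% of all genes were called higher and 0.231% lower, and the other 6 members above the floor there lay between log2 -0.21 and 0.34, with signs that turned under at least 1 scaling. With the floor at the 75th percentile its log2 ratio was -1.001, under the limit. Ccne1 was called lower in adult ovary against neonatal ovary, where 1.48% of all genes were called higher and 1.89% lower. That call was lost with signals as deposited (log2 -1.62), at the same median (-1.92), with the higher floor (-1.23), without a floor (-1.95), with the mean of its probe sets and with cross-hybridizing probe sets left out (-1.91). There 6 of the 7 members above the floor had negative values and only Ccne2 was positive (log2 0.60), under each of the 5 scalings. The median of the members was -0.90, against -0.04 over all genes, and the members other than Ccna1 lay between -2.04 (Ccne1) and 0.60 (Ccne2). Among the 5 Ccnd2 probe sets measured there the values spanned -0.46 to 0.60, so its sign depends on the probe set.

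How the arrays were scaled moved the adult testis values most. Over genes that exceeded the floor on both arrays, the median log2 ratio was -0.50 in adult testis against neonatal testis, and 0.68 when the arrays were scaled to the hybridization controls. All genes split into 1939 called higher and 1876 called lower under the scaling used, and 3809 and 460 under the hybridization controls. For adult ovary against adult testis the split was 2166 higher and 1980 lower, against 839 and 3320 with the hybridization controls. Relative to the median of all genes, and over the 5 scalings, adult testis against neonatal testis gave Ccna1 4.99 to 5.35, Ccnb2 0.99 to 1.43 and Ccne2 2.38 to 2.58. On the same relative scale Ccna2 lay at -2.90 to -2.69 and Ccnd2 at -4.91 to -4.52. The brightest probe set was chosen anew under each scaling, which put another Ccnd2 probe set in place with quantile normalization and with the hybridization controls. With the Ccnd2 probe set kept, an alternative chosen after seeing the data, these settings gave log2 -4.93 and -4.03 in adult testis against neonatal testis and 4.02 and 3.23 in adult ovary against adult testis. Those 5 members kept their sign, Ccnd3 stayed between -0.46 and -0.13, and Ccnd1 (-0.04 to 0.16) and Ccne1 (-0.06 to 0.14) crossed 0. Without the median taken off, the log2 values of Ccnd1, Ccnd3 and Ccne1 in this comparison were -0.53, -0.83 and -0.55 and turned to 0.84, 0.55 and 0.82 with the hybridization controls. Ccnd1 was also the 1 member whose sign turned in adult ovary against adult testis, at log2 0.41 and, with the hybridization controls, -0.61.

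**Figure D3:**
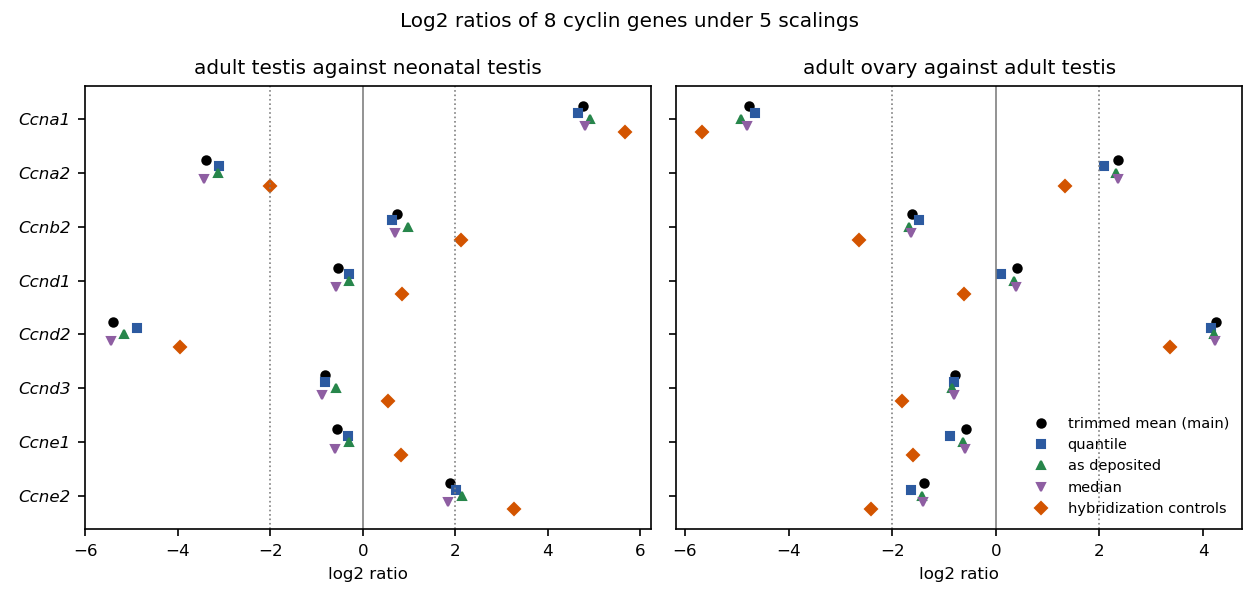
Log2 ratios of 8 cyclin genes in adult testis against neonatal testis and in adult ovary against adult testis under 5 scalings of the arrays, with dotted lines at the limit of a call (a ratio of 4) and a line at 0. Ccna1, Ccna2 and Ccnd2 keep their side of 0 under each scaling, and the hybridization controls shift all members the same way.

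The kinases that cyclins activate were set beside them. Cdk4, the partner of the D-type cyclins, measured 3537 in fetal, 2565 in neonatal and 2768 in adult ovary, and 3392 in fetal, 3133 in neonatal and 273 in adult testis, so adult testis stood below the other 5 arrays as it did for Ccnd2. Cdk4 was called lower in adult testis against neonatal testis (log2 -3.52) and higher in adult ovary against adult testis (log2 3.34), under each of the 5 scalings. Cdk6, the other D-type partner, had 198 in adult testis, against 743 in neonatal testis (log2 -1.91, not called), and was called higher in adult ovary against adult testis (log2 2.37) under 4 of 5 scalings. Another Cdk6 probe set passed the limit in both comparisons, at 118 in adult testis, 482 in neonatal testis and 570 in adult ovary. Its remaining probe set stayed under the floor throughout. Cdk1, the kinase of cell division, measured 2342 in fetal, 2568 in neonatal and 1494 in adult ovary, and 2912 in fetal, 3192 in neonatal and 1053 in adult testis, a log2 ratio of -1.60 in adult testis against neonatal testis. Cdk2, the partner of the E-type and A-type cyclins and a kinase of meiotic prophase in mouse, had 937 in adult testis and 995 in neonatal testis (log2 -0.09). By the probe sets used, 1 of the 4 kinases was called lower in adult testis against neonatal testis and none higher. Over all genes 10.3% were called lower there and 10.7% higher. The median of the kinases was -1.76, against -0.30 over all genes. In adult ovary against adult testis 2 of the 4 were called higher, where 11.9% of all genes were.

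Subunits and inhibitors of the kinases are to be read against the 10.7% of all genes called higher and 10.3% called lower in adult testis against neonatal testis. Of 5 Cks and CDK activating kinase subunits, Cks1b, an accessory subunit, was called lower in adult testis against neonatal testis, at 1084 against 8095 (log2 -2.90), under 4 of 5 scalings, and none was called higher. The median of that list was -0.87. Of 8 CDK inhibitors 7 were above the floor on either array, 2 were called higher in adult testis against neonatal testis and none lower, with a median of 1.03. One was Cdkn2b, an inhibitor of Cdk4 and Cdk6, at 309 against 76.7 (log2 2.01), which was a call under 4 of 5 scalings. The other was Inca1, an inhibitor that binds Ccna1.

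Inca1 measured 950.1 in fetal, 231 in neonatal and 123 in adult ovary, and 84.0 in fetal, 115 in neonatal and 673 in adult testis. Fetal ovary and adult testis were its 2 highest arrays, whereas Ccna1 exceeded the floor in adult testis alone. Inca1 was called higher in fetal ovary against fetal testis (log2 3.50) and in adult testis against neonatal testis (log2 2.55), and lower in adult ovary against adult testis (log2 -2.46), each under 5 of 5 scalings. Its other probe set did not exceed 76.5 on any array. Cdkn1c, an inhibitor that holds cells out of the cycle, measured 6153 in fetal, 3801 in neonatal and 140.4 in adult ovary, and 4262 in fetal, 948 in neonatal and 911 in adult testis. It was called lower in neonatal testis against fetal testis (log2 -2.17), where Ccnd1 was at log2 -1.54, and in adult ovary against neonatal ovary (log2 -4.76), where Ccnd1 was at log2 -1.96. In that last comparison Cdkn2b was called higher (log2 3.18).

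**Figure D4:**
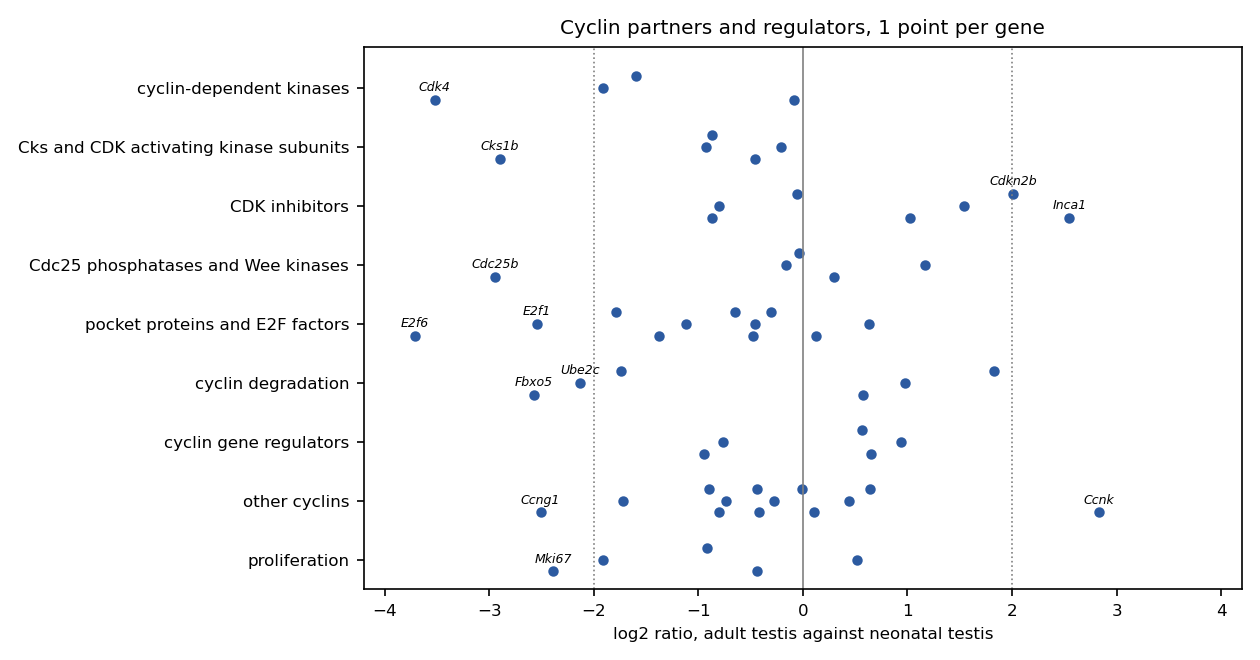
Log2 ratios of adult testis against neonatal testis for genes of 9 lists of cyclin partners and regulators, 1 point per gene, with dotted lines at the limit of a call and names on called genes. By the probe set used for each gene, called genes are lower in most lists, and Inca1, Cdkn2b and Ccnk are the 3 called higher.

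The same shares of all genes, 10.7% higher and 10.3% lower, stand behind the counts of the upstream and downstream regulators. Of 11 pocket proteins and E2F factors, which bind each other and switch cyclin genes, 2 were called lower in adult testis against neonatal testis and none higher, with a median of -0.65. They were E2f1, an activator (102 against 596, log2 -2.55, 4 of 5 scalings), and E2f6, a repressor that in mouse keeps some germ cell genes silent in somatic cells (92.6 against 1212, log2 -3.71, 5 of 5 scalings). Of the Cdc25 phosphatases and Wee kinases, 5 were above the floor, with a list median of -0.04. By the probe sets used only Cdc25b, an activator of Cdk1, was called (101 against 779, log2 -2.94, 4 of 5 scalings). For Wee1 the probe set used read 502 in adult testis and 516 in neonatal testis. Its other probe set differed past the limit, at 720.3 in adult testis and 106 in neonatal testis, with 47.0 in adult ovary. Of 6 cyclin degradation genes above the floor, Fbxo5, which restrains the destruction of cyclins, and Ube2c, which takes part in it, were called lower (log2 -2.57 and -2.13). The Fbxo5 value is a bound, because its adult testis signal of 54.4 was under the floor. None of the list was called higher by the probe sets used, and the median was -0.58. For Skp2, which was not called, the probe set used read 135 in adult testis and 449.6 in neonatal testis. Another of its probe sets went the opposite way past the limit, at 2005 in adult testis, 8.75 in neonatal testis and 7.12 in adult ovary. Ube2c kept its call under 2 of 5 scalings.

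The 5 regulators of cyclin genes had no call in adult testis against neonatal testis and a median of 0.57. Mybl1, a transcription factor that in mouse spermatocytes is needed for meiosis and known to act on Ccna1, was above the floor only in adult testis, at 119, which gave a bound of log2 0.66. Foxm1, an activator of B-type cyclin genes, had 874 in adult testis and 590.3 in neonatal testis (log2 0.57). Further Foxm1 probe sets gave larger differences, at 708 and 538 in adult testis against 321 and 143 in neonatal testis. Its remaining probe set was under the floor on both arrays. Of the 6 proliferation genes 5 were above the floor, with a median of -0.91, and 1 was called lower: Mki67, a marker of cycling cells, at 606 in adult testis and 3174 in neonatal testis (log2 -2.39, 4 of 5 scalings).

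In adult ovary against adult testis, which has the adult testis array in common, the median of all genes was 0.35, with 11.9% called higher and 10.9% lower. The list medians were 1.43 for the kinases, 0.71 for the Cks and CDK activating kinase subunits, 0.72 for the pocket proteins and E2F factors, 0.56 for cyclin degradation, -0.63 for the regulators of cyclin genes, -0.69 for the Cdc25 phosphatases and Wee kinases, -0.99 for the inhibitors and -0.32 for proliferation. Calls beyond those named above were higher for Cks1b (2.37), Cdkn1a (2.34), Cdkn1b (2.21), Cdc25b (2.17), E2f3 (2.28), E2f6 (3.14) and Fbxo5 (2.01) and lower for Cdkn1c (-2.70), as log2 ratios. These calls rest on the probe set used for each gene, and E2f6 and Cdkn1c passed the limit under 5 of 5 scalings. Cks1b, Cdkn1a, Cdc25b and E2f3 passed it under 4 of 5, and Cdkn1b and Fbxo5 under 3 of 5. The Fbxo5 ratio is a bound, with 54.4 in adult testis, under the floor. The other E2f6 probe set read 197 in adult ovary and 62.9, under the floor, in adult testis, a bound short of the limit. That of E2f3, at 92.8 and 73.9, also gave a bound short of it. The other probe sets of Cks1b and Cdkn1a passed it. Foxm1 was not called by the probe set used, at 366 in adult ovary and 874 in adult testis. Further Foxm1 probe sets passed the limit as lower in adult ovary. They read 122 and 12.3 (under the floor) in adult ovary, against 708 and 538 in adult testis. Outside the adult testis, the calls in these 8 lists were inhibitors: Inca1, Cdkn1c and Cdkn2b as given above, with Inca1 lower in neonatal ovary against fetal ovary (log2 -2.04, 4 of 5 scalings) and Cdkn1c higher in neonatal ovary against neonatal testis (log2 2.003, 2 of 5 scalings). Of 7 inhibitors above the floor, 1 was called higher in fetal and 1 in neonatal ovary against testis, where 0.192% and 1.4% of all genes were. In neonatal against fetal gonads 1 was called lower in testis and 1 in ovary, where 0.44% and 0.231% were. In adult ovary against neonatal ovary 1 was called higher and 1 lower, where 1.48% and 1.89% were.

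Markers of somatic gonad cells were summed for the arrays that the adult testis results rest on. The 7 Sertoli markers summed to 15545 in adult testis with 5 above the floor, and to 30676 in neonatal testis with 7 above it. The 5 measured Leydig markers summed to 4937 in adult testis, against 17611 in neonatal testis, all above the floor on both arrays. The 4 endothelial markers summed to 342 in adult testis with 2 above the floor, and to 1862 in neonatal testis with 4. Not every marker was lower in adult testis: 2 of the 7 Sertoli and 2 of the 5 Leydig markers were higher there. As a log2 ratio of adult testis over neonatal testis, the Sertoli sum was -0.98 and turned to 0.39 with the hybridization controls, while the Leydig sum was -1.83 and -0.46, and the endothelial sum -2.44 and -1.07. The 6 measured granulosa markers, of which the testis also expresses several such as Inha, summed to 26256 in adult ovary, 2103 in adult testis and 16470.4 in neonatal testis. The 7 oocyte markers summed to 7235 in adult ovary with 7 above the floor, against 856 in adult testis with 3. The part of cell makeup in the values of Ccna2, Ccnd2 and Cdk4 was not tested.

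Genes with the most similar patterns over the 6 arrays were found by the distance between centred log2 signals, among 11294 genes that reached 4 times the floor on at least 1 array. For Ccnd2 the 5 nearest were S100a10 (distance 0.37), Bgn (0.57), Cnn3 (0.68), Ptgfrn (0.70) and Phldb2 (0.70). S100a10, the closest, measured 4543 in fetal, 5360.1 in neonatal and 4011 in adult ovary, and 4257 in fetal, 7740 in neonatal and 235 in adult testis. It shared with Ccnd2 the highest signal in neonatal testis and the lowest in adult testis. For Ccna1 the 5 nearest were 4930415O20Rik, Apobec4, Selenov, Aldoart1 and Arc, all within 0.02. Each of them was at the floor on 5 arrays, so their likeness to Ccna1 rests on the adult testis signal alone and carries no order.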

How the data were processed

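Total RNA of 6 gonad samples was labelled with biotin and hybridized to 1 Affymetrix array each, per the labels' protocols. The deposited table holds 1 intensity per probe set and array on a linear scale with a lowest value of 1. Per the submitters' processing notes, GCOS (version 1) was used, with no step named. The sources used here do not state the background correction, the probe summary, any scaling between arrays or the number of animals per RNA. Precision is limited by having 6 arrays.

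From these values, each array was scaled to the same 2% trimmed mean (256 to 353 as deposited), and signals under the median of all scaled signals were raised to it. Array medians as deposited lay between 64.1 and 82.5. Of the probe sets 34945 have 1 gene symbol and were used, 932 have several, 9211 have none and 64 are controls. Among probe sets of the same gene the brightest on average under each scaling stood for it, and 18145 gene symbols were found in the reference table for GRCm38.p6. Ccnb1 had no probe set of its own in the annotation, so the comparison of Ccna1 with the other cyclins covers 7 and not 8 of them. A pattern search for Ccnb1 was not run. The 7 comparisons were described by ratios with no test.

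The members and the 20 lists (130 genes, 125 measured, with Insl3, Cyp19a1, Lhcgr, Prlr and Hbb-bs not analysed here) were chosen with earlier results of these data known. Named genes are the members, the kinases Cdk1, Cdk2, Cdk4 and Cdk6, list genes called at a ratio of 4 or more, and the 5 genes nearest in pattern to Ccna1 and Ccnd2. Mybl1, Foxm1, Skp2 and Wee1 were named outside this rule after their values were seen. Alternatives were 4 other scalings, the 25th or 75th percentile as floor, 16 added in place of a floor, a gene's probe sets averaged, cross-hybridizing probe sets left out, and limits of 2 and 8. Python 3.11.15, numpy 2.4.6, pandas 2.3.3 and matplotlib 3.10.9 were used, and the steps were tested on simulated data.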

Additional observations from a re-analysis of the deposited data

Results flagged for a closer look

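The sex difference of Ccne2 ran opposite ways in the fetus and in the adult. Its log2 ratio was 1.10 in fetal ovary against fetal testis and -1.39 in adult ovary against adult testis, so ovary was the higher sex in the fetus and the lower one in the adult. It was noticed because both values exceed a ratio of 2 in opposite directions. Each group has 1 array, so the difference between the ages was not tested. With the floor at the 75th percentile the adult value became -0.32.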

How the results depend on the processing

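No paired analysis was possible because each group has 1 array. No replicate could be left out for the same reason. The direction of Ccna1 was the same under all alternatives, while its size followed the floor and the scaling. In adult testis against neonatal testis its log2 bound was 4.77, and it became 5.67 with the hybridization controls, 6.54 and 2.59 with floors at the 25th and 75th percentile, and 5.79 with no floor and 16 added. For adult ovary against adult testis the same 4 settings gave -5.67, -6.54, -2.59 and -6.43. Relative to the median of the other 7 members, the low floor, the high floor and no floor gave 7.09, 2.999 and 6.32 in adult testis against neonatal testis, and -5.96, -2.59 and -5.88 in adult ovary against adult testis.

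Counts of called members are small and moved by 1 or 2. In adult testis against neonatal testis the count higher was 2 with quantile normalization, with signals as deposited and at a ratio of 2, and 3 with the hybridization controls. Against adult testis, adult ovary had a count higher of 1 with the hybridization controls, the high floor, the mean of all probe sets and a ratio of 8, and the count lower was 3 with the hybridization controls and at a ratio of 2. In neonatal ovary against neonatal testis the count higher was 1 with the hybridization controls and at a ratio of 2. At a ratio of 2 it was also 1 in fetal ovary against fetal testis, and the count lower was 2 in neonatal testis against fetal testis. In neonatal ovary against fetal ovary the count lower was 0 with the high floor and at a ratio of 8. In adult ovary against neonatal ovary the count lower was 2 with quantile normalization and the hybridization controls, 3 at a ratio of 2, and 0 with signals as deposited, the same median, the high floor, no floor, the mean of all probe sets, cross-hybridizing probe sets left out and a ratio of 8. The cause of these moves was not tested. The other 150 counts and Ccna1 values stayed within the limit, and of single members' log2 ratios 386 stayed within the robust SD and 51 moved beyond it. Keeping the Ccnd2 probe set while the scaling changed, which was chosen after seeing the data, turned no called Ccnd2 value and lost no Ccnd2 call.

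Over all genes, calls split as higher and lower into 254 and 175 in neonatal ovary against neonatal testis, with 368 and 101 under the hybridization controls, 178 and 206 as deposited and 203 and 214 at the same median. In neonatal testis against fetal testis they were 65 and 80, with 40 and 92, 49 and 94, and 85 and 64 under these settings. As deposited, neonatal ovary against fetal ovary gave 76 and 99 in place of 138 and 42, and adult ovary against neonatal ovary 402 and 194 in place of 270 and 343. Signals near the floor limit what can be said of Ccna1 on 5 of the 6 arrays and of the dim probe sets of Ccnd1 and Ccnd3.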

Other observations

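Other genes of the cyclin family, outside the mitotic and meiotic members, were measured for 14 listed genes, and 4 of them had calls. Those of Ccnk, Ccng1 and Ccng2 are to be read against the shares of all genes in the adult testis comparisons. These were 10.7% higher and 10.3% lower in adult testis against neonatal testis, and 11.9% higher and 10.9% lower in adult ovary against adult testis. Ccno was called in other comparisons, given below with their shares. Ccnk, a cyclin that acts with transcription kinases, measured 635 in fetal, 636 in neonatal and 507 in adult ovary, and 583 in fetal, 564 in neonatal and 4014 in adult testis. Like Ccna1 it was highest in adult testis, but it was present on all 6 arrays, and it was called higher in adult testis against neonatal testis (log2 2.83) and lower in adult ovary against adult testis (log2 -2.98) under 5 of 5 scalings. Ccng1, a target of p53, had 229 in adult testis and 1302 in neonatal testis (log2 -2.51), a call that held under 4 of 5 scalings. Ccng1 and Ccng2 were called higher in adult ovary against adult testis, at log2 2.87 and 2.70. Another Ccng1 probe set stayed under the limit in both comparisons, at 260 in adult ovary, 183 in adult testis and 502 in neonatal testis. The remaining Ccng1 probe set passed it in both, at 425, 53.2 (under the floor) and 326. The other Ccng2 probe set was dim, at 116 in adult ovary and 28.0, under the floor, in adult testis. The list's median was -0.42 in adult testis against neonatal testis and 0.59 in adult ovary against adult testis.

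Ccno, a cyclin known from cells with many cilia, measured 37.9 in fetal, 916 in neonatal and 346 in adult ovary, and 30.2 in fetal, 38.4 in neonatal and 102 in adult testis. Neonatal ovary was its highest array, at least 12.2-fold above fetal ovary and above neonatal testis (log2 3.60 in both, 5 of 5 scalings). Ccno was the 1 of the 14 listed genes called in each of these comparisons. Over all genes 0.759% were called higher in neonatal ovary against fetal ovary, and 1.4% in neonatal ovary against neonatal testis. The 7 oocyte markers moved with Ccno between fetal and neonatal ovary, with sums of 9287 in neonatal ovary and 6 above the floor, against 678 in fetal ovary and 2 above it. Their part in the Ccno signal was not tested.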
